A study of Mus musculus with 10 samples.

Results

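The genes described here are 9 genes of the blood-brain barrier: Flt1, Cldn5, Slco1a4, Slco1c1, Abcb1a, Slc2a1, Mfsd2a, Pecam1 and Tek. They were chosen by symbol, with earlier results of these data known, and all 9 were found among the 33502 genes of the deposited table. Single nuclei were sequenced from tissue punches centred on the paraventricular thalamic nucleus (PVT), which also held neighbouring regions, in untreated C57BL/6J mice aged 12 weeks. The study's methods give 4 mice pooled in each sample, but count only 4 replicates. Whether this pooling holds for all libraries used here is not stated. The 10 libraries were 6 labelled female and 4 whose labels name no sex, and the deposited table of nuclei gives those 4 as male. For each library, the molecules (UMIs) of all nuclei of a cell type were summed, and the endothelial sums were compared with the fibroblast, astrocyte and ependymal sums. The cell types are the authors' own, drawn by clustering these same nuclei, and Flt1 was the study's marker for endothelial cells. The values of Flt1 between types are therefore a description, also where Flt1 is counted among the members. For the other members, a fold between types also describes clusters that were made from the same counts.

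The blood-brain barrier is formed by the endothelial cells of brain capillaries. These cells seal the gaps between them with tight junctions, carry few vesicles across, and pass nutrients through dedicated carriers while pumps return foreign compounds to the blood. Pericytes and the endfeet of astrocytes surround the vessel, and Wnt signals from the brain maintain the barrier program in the endothelium. The members cover these roles. Flt1 and Tek are receptors for vascular growth factors and for angiopoietins, Pecam1 is an adhesion molecule of endothelial contacts, and Cldn5 is the main claudin of brain tight junctions. Slco1a4 and Slco1c1 carry organic anions, the latter also thyroid hormone, Abcb1a is the efflux pump P-glycoprotein, Slc2a1 is the glucose carrier GLUT1, and Mfsd2a carries lipids with omega-3 fatty acids and restrains vesicle transport.

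On the mouse build GRCm38 (mm10), Flt1 lies on chromosome 5 from 147561604 to 147726011 on the minus strand, and Cldn5 on chromosome 16 from 18776847 to 18778262 on the plus strand. Slco1a4 and Slco1c1 lie 235262 bases apart on chromosome 6. Slco1a4 spans 141805440 to 141856199 on the minus strand and Slco1c1 spans 141524368 to 141570177 on the plus strand. Abcb1a spans 8660077 to 8748575 on the plus strand of chromosome 5, and Pecam1 spans 106654217 to 106750628 on the minus strand of chromosome 11. Chromosome 4 holds Slc2a1 from 119108711 to 119137983, Mfsd2a from 122946850 to 122961188 on the minus strand, and Tek from 94739289 to 94874976. Abcb1a and Slc2a1 overlap other annotated genes on both strands, and Abcb1a has the close paralog Abcb1b, so that their counts may be split between features.

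The 250 bases before the RefSeq start (GRCm38.p6) were searched in the 8 members with an entry, all but Pecam1. The letters were AGGAAG, a core of sites for ETS factors, which are known regulators of endothelial genes, and ATCAAAG, a core of sites for the TCF/LEF factors of the Wnt pathway, both on either strand. AGGAAG was found before 4 of the 8 members, against 29.5% of 32851 mouse promoters. Among these 4 was Abcb1a, whose window, 8566841 to 8567090 on chromosome 5, lies far before the GENCODE start of the gene at 8660077. Its matches thus do not stand at the gene start given above. ATCAAAG was found in 0 of the 8 windows, against 3.21%. Of these windows 4 are shown. Flt1 is shown because it defined the endothelial cluster, and Cldn5 as a member without a match. Slco1a4 and Slco1c1 are shown as carriers of the same family on the same chromosome. Capitals mark AGGAAG or its reverse complement, and each sequence reads 5′ to 3′ on the gene's strand.
Flt1, chr5:147726012-147726261, minus strand: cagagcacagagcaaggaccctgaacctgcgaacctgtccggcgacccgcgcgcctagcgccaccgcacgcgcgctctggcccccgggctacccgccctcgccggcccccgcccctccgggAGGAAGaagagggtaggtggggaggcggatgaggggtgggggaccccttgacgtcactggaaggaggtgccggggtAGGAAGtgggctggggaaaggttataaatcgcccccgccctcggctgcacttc
Slco1a4, chr6:141856221-141856470, minus strand: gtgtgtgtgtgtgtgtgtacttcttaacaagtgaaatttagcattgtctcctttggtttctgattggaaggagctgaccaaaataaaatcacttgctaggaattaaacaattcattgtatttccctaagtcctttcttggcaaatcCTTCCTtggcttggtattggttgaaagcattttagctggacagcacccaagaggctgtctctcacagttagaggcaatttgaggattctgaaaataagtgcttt
Slco1c1, chr6:141524104-141524353, plus strand: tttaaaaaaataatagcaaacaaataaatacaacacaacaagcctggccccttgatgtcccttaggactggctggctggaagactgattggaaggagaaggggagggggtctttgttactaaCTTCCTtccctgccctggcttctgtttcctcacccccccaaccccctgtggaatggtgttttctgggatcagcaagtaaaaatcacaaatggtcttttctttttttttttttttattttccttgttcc
Cldn5, chr16:18776597-18776846, plus strand: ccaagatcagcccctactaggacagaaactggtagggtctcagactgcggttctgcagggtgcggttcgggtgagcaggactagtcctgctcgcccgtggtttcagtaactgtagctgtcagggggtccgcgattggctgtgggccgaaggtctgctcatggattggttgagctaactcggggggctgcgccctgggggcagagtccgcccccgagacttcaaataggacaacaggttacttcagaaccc
The promoter of Flt1 held the letters at 2 places, and those of both carriers at 1 place each.

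The 20503 nuclei held 215 endothelial, 179 fibroblast, 5302 astrocyte and 469 ependymal nuclei. Library totals ranged from 5119927 to 55956635 UMIs. Only sums of at least 10 nuclei entered the comparison, which left 7 endothelial (3 male, 4 female), 8 fibroblast, 9 ependymal and 10 astrocyte sums. The deposited counts give the male libraries no UMI of any mitochondrial gene and the female libraries 562659, so gene sets differ between the 2 groups of libraries. Of the nuclei, 46 barcodes occurred in more than 1 library. Levels are given as CPM, the UMIs of a gene for every 1000000 UMIs of the scaled library size, a scale without correction for gene length, so a level is compared between cell types and not between genes.

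The marker lists followed the labels for their own types, with exceptions elsewhere. All 9 tested fibroblast markers were called lower in endothelial than in fibroblast sums, as were 10.0% of all genes. All 9 astrocyte markers were lower than in astrocytes and all 8 ependymal markers lower than in ependymal cells, as were 27.0% and 26.2% of genes. The 8 pericyte markers, in contrast, were detected in both vascular clusters, with a summed level from 500.5 to 7085 CPM over endothelial libraries and from 1553 to 3457 CPM over fibroblast libraries. All 8 had UMIs in both clusters, and 7 of 8 did not pass the test between them, where 22.9% of genes did. Other exceptions were markers above a type that lacks them. In endothelial sums, 3 of 9 fibroblast markers were higher than in astrocytes and 5 of 9 than in ependymal cells, with Dcn at 72.0 CPM. Mal, an oligodendrocyte marker, was higher in all 3 comparisons at 245 CPM, and Aldoc, an astrocyte marker, at 165 CPM was higher than in fibroblasts and ependymal cells. Their part in the members' values was not tested. The nuclei of both vascular clusters are split by the pericyte markers further on.

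Flt1, the decoy and signalling receptor for VEGF, ranged from 3305 to 5579 CPM over the 7 endothelial sums with a median of 3733. In the 8 fibroblast sums it lay between 0 and 96.4 CPM with a median of 21.2, and in astrocytes it reached at most 3.37 CPM. Of 9 ependymal sums, 7 held no UMI of Flt1, and all 9 sums of oligodendrocyte precursor cells (OPCs) held none. The endothelial mean of 4227 ± 857 CPM (SD, n = 7) thus stood far above the fibroblast mean of 35.9 ± 36.0 CPM (n = 8), a log2 difference of 6.61 (SE 0.35), and no library of the other types came near it.

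Tek, the angiopoietin receptor TIE2, had levels from 331 to 525 CPM in endothelial sums, with a median of 422. Its other levels were low but not 0, with 21.8 ± 24.8 CPM in fibroblasts, 19.7 ± 6.60 CPM in neurons (n = 10) and 9.41 ± 4.79 CPM in astrocytes (n = 10). The fibroblast and neuron levels of Tek were not told apart by the test (fibroblasts minus neurons, log2 difference 0.10, SE 0.44), while astrocytes lay below neurons (−1.16, SE 0.18). Neurons held 1672 UMIs of Tek in 10 libraries, none of them at 0.

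Pecam1, the adhesion molecule CD31 of endothelial contacts and of blood cells, ranged from 299 to 753 CPM in endothelial sums with a median of 409. Microglia, a cell type outside the chosen comparisons, came next with 20.9 ± 16.1 CPM (n = 10). That level was higher than in neurons, at 6.77 ± 2.53 CPM, and the remaining types from fibroblasts to OPCs averaged between 5.08 and 2.71 CPM, with no pair of neighbours in the order called apart.

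Cldn5, the tight junction protein, ranged from 1161 to 2966 CPM in endothelial sums with a median of 1842, and the highest value, in female replicate 4, stood apart from the next at 1859 CPM. In fibroblasts 4 of 8 sums held no UMI, the median was 8.94 CPM and the highest, in female replicate 5, was 67.5 CPM. Astrocytes reached at most 2.39 CPM and ependymal cells 7.78 CPM, so the endothelial sums overlapped with none of the others.

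The 2 organic anion carriers differed in where else they were found. Slco1a4 ranged from 1576 to 3186 CPM in endothelial sums with a median of 2645. Outside the endothelium it stayed at a mean of 21.2 CPM in fibroblasts, 2.66 CPM in astrocytes and 0.43 CPM in ependymal cells, where 2 UMIs were counted in all. In astrocytes, 1 library accounted for most of it, with 20.7 CPM in male replicate 1 against a median of 0. Only 12 astrocyte nuclei held a UMI of it, and 29 of its 38 astrocyte UMIs came from nuclei with UMIs of at least 3 different members.

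Slco1c1 ranged from 1119 to 1932 CPM in endothelial sums with a median of 1342. Astrocytes also carried it in every library, from 24.8 to 76.4 CPM with a median of 51.0, from 763 UMIs. Ependymal cells came next with a median of 9.98 CPM, and fibroblasts held 4 UMIs in all. The order endothelial, astrocyte, ependymal was resolved, with a log2 difference of 4.71 (SE 0.19) at the first step and of 2.22 (SE 0.35) at the second. Ependymal cells and fibroblasts were not told apart (−0.53 for fibroblasts minus ependymal cells, SE 0.92).

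Abcb1a ranged from 662 to 1196 CPM in endothelial sums with a median of 999. Fibroblasts were the only other type with a sizeable level, from 17.6 to 251 CPM with a median of 128 and no library at 0. The lowest endothelial sum still lay well above the highest fibroblast sum. Astrocytes, ependymal cells, OPCs, oligodendrocytes and neurons averaged between 0.65 and 1.43 CPM, and microglia held 0 UMIs of 2552904, where 3 UMIs in a sum would be 15.9 CPM on average over the 10 sums. The paralog Abcb1b, looked at after its values were seen, had the opposite distribution, with 1 UMI in all endothelial sums and 90.1 ± 19.0 CPM in microglia.

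Slc2a1 was detected in every cell type. Endothelial sums ranged from 663 to 1150 CPM with a median of 932. Ependymal sums, which line the third ventricle next to the PVT, ranged from 80.2 to 497 CPM with a median of 344, and astrocytes from 46.2 to 126 CPM with a median of 83.5. Oligodendrocytes followed with 62.7 ± 29.1 CPM, microglia with 25.1 ± 13.4 CPM and fibroblasts with 21.4 ± 20.6 CPM. Astrocytes lay below ependymal cells in 9 of 9 libraries (log2 difference −1.76, SE 0.16), and every endothelial sum exceeded every ependymal sum. Astrocytes and oligodendrocytes were not called apart, with a log2 difference of 0.43 (SE 0.17).

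Mfsd2a ranged in the endothelium from 63.8 to 227 CPM with a median of 138 and 93 UMIs in all. It was the 1 member for which another type stood first. OPCs had 227 CPM as the median of 9 sums and ranged from 27.5 to 291 CPM, with 8 of the sums at 200.5 CPM or more. The mean was 215 ± 75.0 CPM in OPCs and 129 ± 57.6 CPM in endothelial cells. Endothelial minus OPC, the log2 difference was −0.57 (SE 0.26, 2 SE on either side from −1.09 to −0.04), with an adjusted p of 0.072 by edgeR's quasi-likelihood test, where 42.8% of genes were called. The endothelial sum was the higher in 1 of 6 libraries that had both. Over 23 alternatives the difference ran from −0.87 to −0.06 and the adjusted p from 0.013 to 0.97, with the first in female libraries alone and the last in male libraries alone. Astrocytes had a median of 33.0 CPM, while fibroblasts and ependymal cells held 2 UMIs each.

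**Figure D1:**
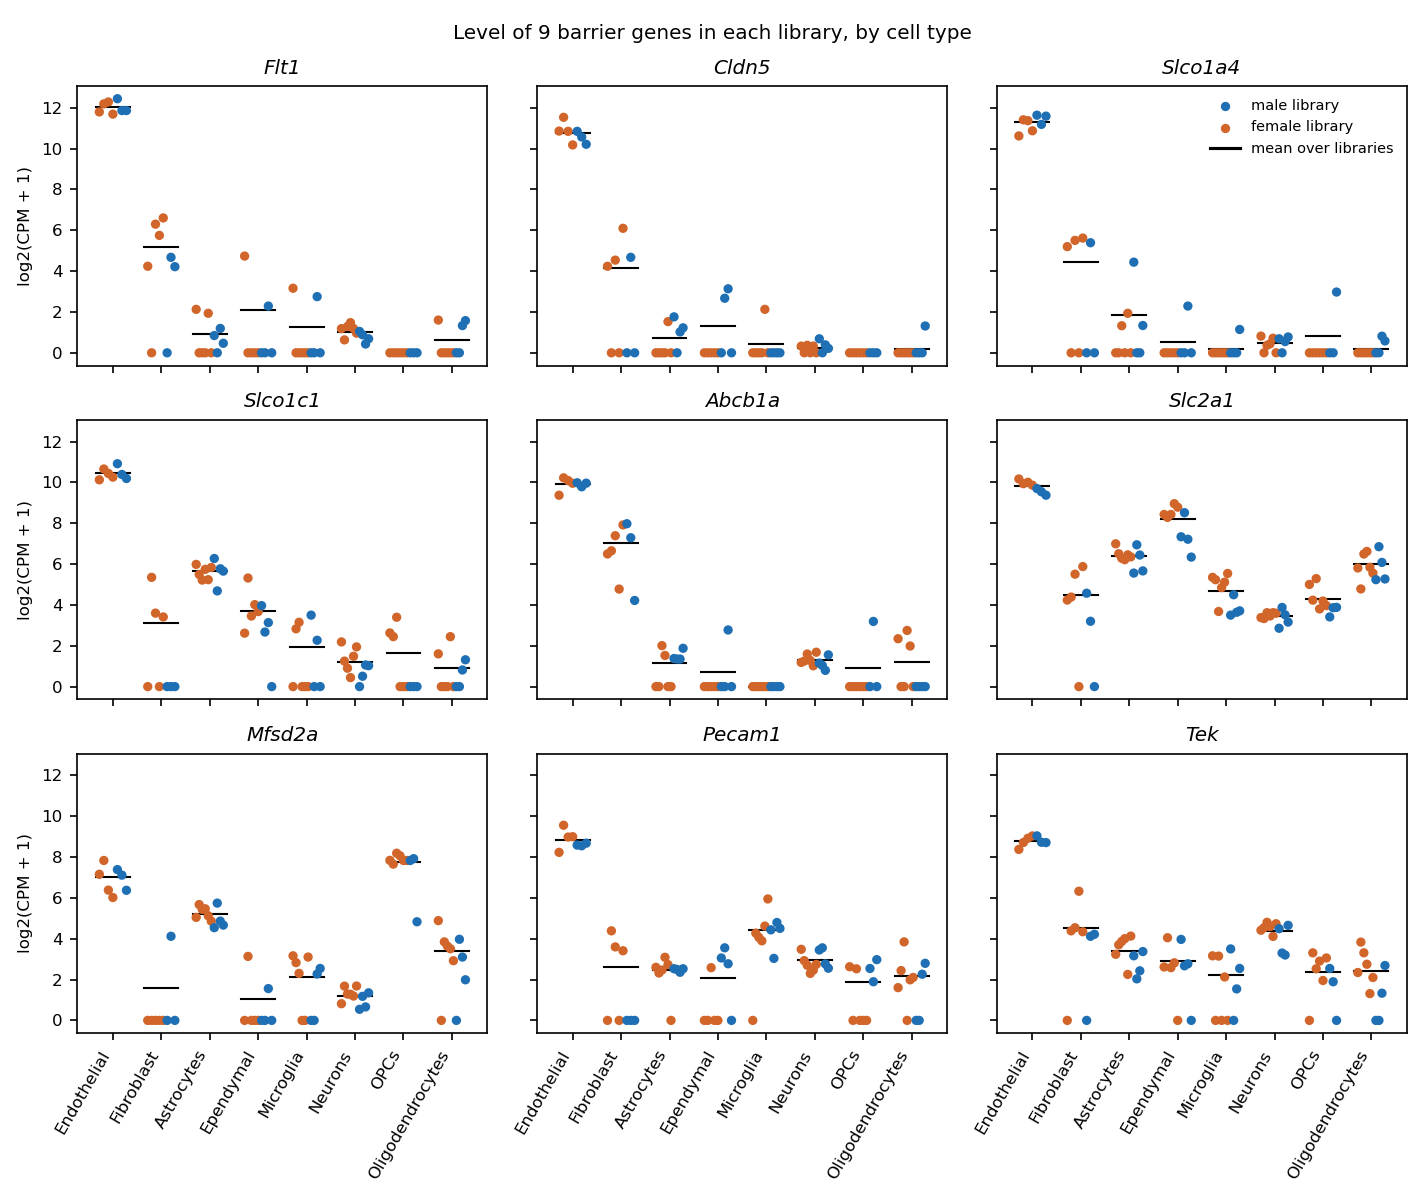
Level of each member in every library (points, log2 of CPM + 1, male libraries blue and female libraries orange) by cell type, with the mean CPM over libraries as a bar. Each member is highest in endothelial sums except Mfsd2a, whose OPC sums lie at a median of 227 CPM, and Slc2a1 also stands at a median of 344 CPM in ependymal sums.

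The 3 comparisons were fitted over 9842 genes that passed a filter on low counts, and all 9 members passed it. Members found mainly in endothelial cells passed it through their endothelial sums. For them a higher call, and sums above those of the other type, were largely set in advance, so the counts below are a description. A gene was called when its Benjamini-Hochberg adjusted p was below 0.05 and its log2 difference over 0.5. Against fibroblasts, 9 of 9 members were called higher in endothelial sums, where 12.9% of all genes were, with Flt1, the marker of the cluster, counted here as a description. The same count was 9 of 9 against astrocytes, with 18.8% of all genes, and 9 of 9 against ependymal cells, with 16.1%. In each of the 3 comparisons the endothelial sums of all 9 members lay above every sum of the other type, which held for 3.07%, 6.72% and 5.27% of all genes.

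The differences in log2 level varied widely between members. Against fibroblasts they ran from 2.81 (SE 0.27) for Abcb1a to 7.47 (SE 0.42) for Slco1c1, with a median of 5.97 beside −0.01 over all genes. Against astrocytes they ran from 1.99 (SE 0.28) for Mfsd2a to 11.94 (SE 0.34) for Flt1, with a median of 6.62 beside −0.16. Against ependymal cells they ran from 1.77 (SE 0.17) for Slc2a1 to 11.11 (SE 0.42) for Slco1a4, a fit to 2 ependymal UMIs, with a median of 7.09 beside −0.19. Each type thus had its own member closest to the endothelial level: Abcb1a in fibroblasts, Mfsd2a in astrocytes and Slc2a1 in ependymal cells.

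Where the other type held 3 UMIs or fewer, the fitted difference is no bound and the ratio of pooled CPM, without scaling, is given with its exact 95% interval for counting error. For Mfsd2a it was 33.7 (9.08 to 283) against fibroblasts and 166 (44.8 to 1395) against ependymal cells. For Pecam1 against fibroblasts it was 79.8 (27.1 to 389). For Slco1a4 and Abcb1a against ependymal cells it was 3311 (915 to 27360) and 851 (290 to 4135). All 5 lower bounds lay well above 1.

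A few libraries set the size of some folds. Without male replicate 1, the log2 difference of Slco1a4 against astrocytes was 11.42 in place of 9.85, and without female replicate 5 that of Cldn5 against fibroblasts was 6.74 in place of 5.97. Male replicate 3 held every ependymal UMI of Abcb1a and Slco1a4 and every fibroblast UMI of Mfsd2a. Without it, the pooled level was at least 678-fold, 1747-fold and 16.9-fold higher in endothelial sums, taking 3 counts over the other type as the floor. The fitted values are then no bound and are not given.

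In 4 more cases 1 or 2 UMIs remained, and the pooled ratio is given with its exact interval for counting error. It was 3569 (639 to 141136) for Cldn5 against ependymal cells without male replicate 3 and 5011 (1386 to 41400) for Flt1 without female replicate 1. For Mfsd2a against ependymal cells without female replicate 3 it was 312 (54.6 to 12449), and for Slco1c1 against fibroblasts without female replicate 2 it was 338 (93.4 to 2797). No call was lost by leaving out any 1 library.

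**Figure D2:**
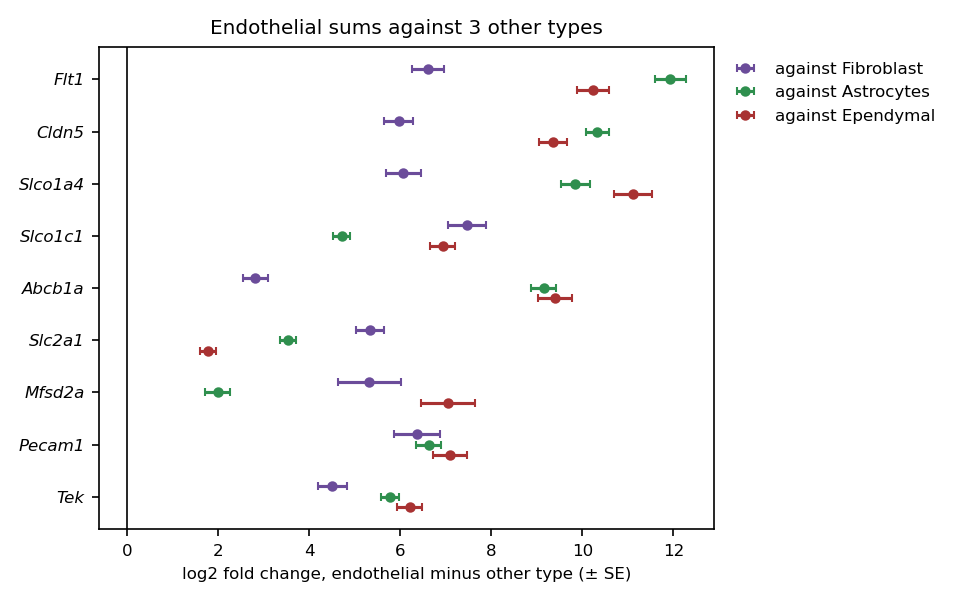
Log2 difference of each member, endothelial sums minus the sums of the type named by the colour, with its standard error as the bar. All points lie right of 0, and the smallest are Slc2a1 against ependymal cells at 1.77, Mfsd2a against astrocytes at 1.99 and Abcb1a against fibroblasts at 2.81.

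The types other than endothelium also differed from each other in some members. Flt1, Cldn5, Slco1a4, Tek and Pecam1 are left out here, since fibroblasts held from 3 to 24 UMIs of each and their endothelial sums counted toward the filter they passed. Abcb1a was higher in fibroblasts than in astrocytes by 6.34 (SE 0.40) on the log2 scale, and each fibroblast sum lay above each astrocyte sum. Slco1c1, Slc2a1 and Mfsd2a were lower in fibroblasts than in astrocytes, in 8 of 8 libraries each, from 4, 14 and 2 fibroblast UMIs. For Slco1c1 and Mfsd2a, 3 UMIs in a fibroblast sum would be 50.1 CPM on average, above the astrocyte means of 49.2 and 35.7 CPM. A fibroblast sum without a UMI counts as lower there, so the number of libraries adds no support for these 2 members. Of all genes, 13.1% were higher and 20.7% lower in fibroblasts. Against ependymal cells, Abcb1a was higher in fibroblasts in 7 of 7 libraries, where 3 ependymal UMIs were counted, and Slc2a1 was lower, with a log2 difference of −3.56 (SE 0.34). Of all genes, 13.2% were higher and 25.2% lower.

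The members were found together in the same nuclei. Of 215 endothelial nuclei, 192 had UMIs of at least 3 different members, 47 had all 9 and 1 had none, with a median of 7. These 192 nuclei held 98.9% of the members' UMIs in the type. The same was true of 5 of 179 fibroblast nuclei, 25 of 5302 astrocytes and 3 of 469 ependymal nuclei. To compare nuclei of unequal depth, each was thinned to 1000 UMIs and shallower nuclei, 56 of them endothelial, were left out. At that depth, 96.1 ± 6.95% of endothelial nuclei (SD, n = 7 libraries) and 1.53 ± 2.95% of fibroblast nuclei (n = 8) had at least 3 members, while 1 of 5137 astrocytes and 0 of 384 ependymal nuclei did. The 0 allows a share of up to 0.781% of ependymal nuclei, for counting error only.

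By single member, the share of thinned endothelial nuclei with a UMI was 93.1 ± 7.36% for Flt1, 81.1 ± 11.9% for Cldn5 and 80.1 ± 13.9% for Slco1a4. It was 66.7 ± 17.0% for Abcb1a, 45.0 ± 15.1% for Pecam1 and 5.50 ± 5.34% for Mfsd2a. In fibroblasts, which had a similar depth before thinning (median 2346 against 2734 UMIs), the share was 15.2 ± 10.4% for Abcb1a and between 0.43% and 3.21% for the other members. In ependymal nuclei it was 22.4 ± 15.2% for Slc2a1 and at most 1.34% for every other member, and in OPCs 17.8 ± 6.61% for Mfsd2a. Without thinning these 3 shares were 22.4%, 52.8% and 50.0% for Abcb1a in fibroblasts, Slc2a1 in ependymal nuclei and Mfsd2a in OPCs, and at 500 UMIs they were 8.02%, 9.13% and 11.03%.

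The composition of the members' UMIs differed between types as well. For each Flt1 UMI, endothelial nuclei held 0.24 UMIs of Abcb1a (exact 95% interval 0.22 to 0.26) and fibroblast nuclei 2.32 (1.56 to 3.52). The intervals of this paragraph are for counting error only and leave out the spread between nuclei and libraries. Only 14 fibroblast nuclei held Flt1. Since Flt1 was the study's endothelial marker, higher ratios to it in other types were in part set in advance. Of the 86 Abcb1a UMIs in fibroblasts, 5.81% came from nuclei with 3 or more members, against 64.9% of the 37 Flt1 UMIs and 85.0% of the 20 Cldn5 UMIs there. Slco1c1 stood at 58.7 UMIs for each Flt1 UMI in astrocytes (34.1 to 111) and at 0.33 in endothelial nuclei (0.31 to 0.35), and 3.80% of its astrocyte UMIs came from nuclei with 3 or more members. Of the 38 astrocyte UMIs of Slco1a4, 76.3% came from nuclei with 3 or more members. Without such nuclei of the other types, its log2 difference against astrocytes was 11.93 in place of 9.85. Thus Flt1 and Cldn5 in fibroblasts and Slco1a4 in astrocytes lay mostly in a few nuclei that held several members. Abcb1a in fibroblasts and Slco1c1 in astrocytes did not.

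**Figure D3:**
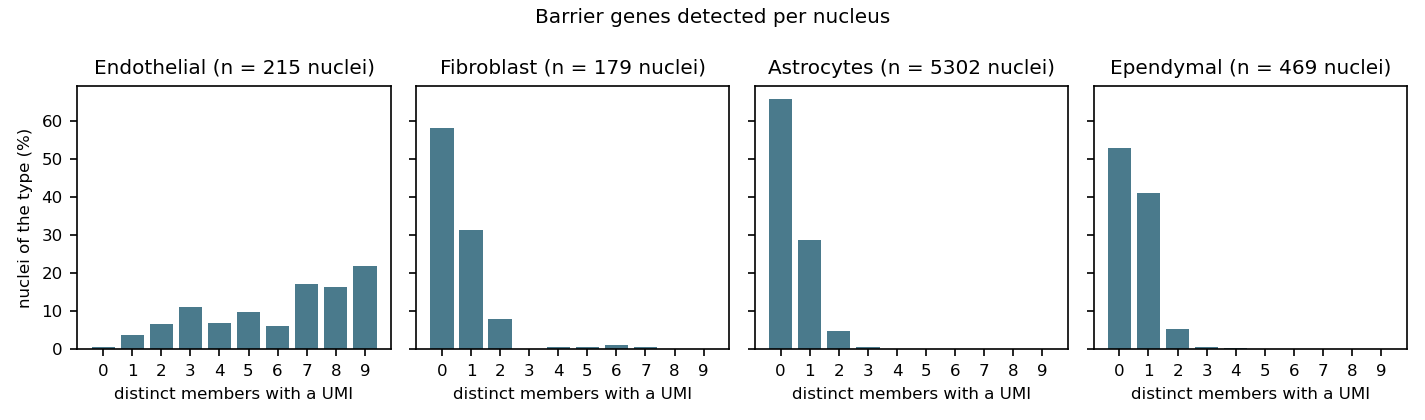
Share of nuclei of each type (percent, bars) by the number of distinct members with at least 1 UMI, without thinning. Endothelial nuclei spread up to all 9 members, with 47 nuclei there, while in the other 3 types most nuclei hold 0 or 1.

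Because pericyte markers were present in both vascular clusters, their nuclei were split by whether they had UMIs of at least 3 of the 8 markers. Of 215 endothelial nuclei, 48 did, and they were deeper, with a median of 7470 UMIs against 1460. Their share ran from 1.56% of 64 nuclei in male replicate 4 to 50.0% of 10 in male replicate 1. Libraries thus gave unequal parts of the 2 kinds of nuclei, and the pooled values also differ by library. The 48 nuclei held 361239 of the 728284 UMIs of the type. The members summed to 13625 CPM (unscaled) in these nuclei and to 14854 in the rest, and 46 of the 48 also had at least 3 members. The pericyte markers summed to 7023 and 717 CPM. After thinning to 1000 UMIs, 27 of 159 endothelial nuclei still had 3 pericyte markers, and 26 of them had 3 members too.

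In fibroblasts, 45 of 179 nuclei had at least 3 pericyte markers, and 3 of these had at least 3 members. Among libraries with at least 10 fibroblast nuclei, the share with the markers ran from 8.33% of 12 in female replicate 4 to 61.1% of 18 in male replicate 4. Members went separate ways between the 2 kinds of fibroblast nuclei. Flt1 stood at 235 CPM in those with the markers and at 13.5 in the rest, from 32 and 5 UMIs, and Cldn5 at 125 and 8.10, from 17 and 3 UMIs. Only 14 fibroblast nuclei held Flt1 and 6 held Cldn5, so a few nuclei carried these values. Abcb1a had the reverse order, with 22.0 CPM in nuclei with the markers and 224 in the rest, from 3 and 83 UMIs. Without the marker-bearing nuclei of both types, an alternative chosen after seeing the data, all 9 members were still called against fibroblasts. That fit had 5 endothelial and 6 fibroblast sums. The log2 difference was then 8.52 for Flt1 and 7.36 for Cldn5, and 2.11 for Abcb1a, in place of 6.61, 5.97 and 2.81. The part of pericyte RNA or of mixed nuclei in these levels was not tested.

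**Figure D4:**
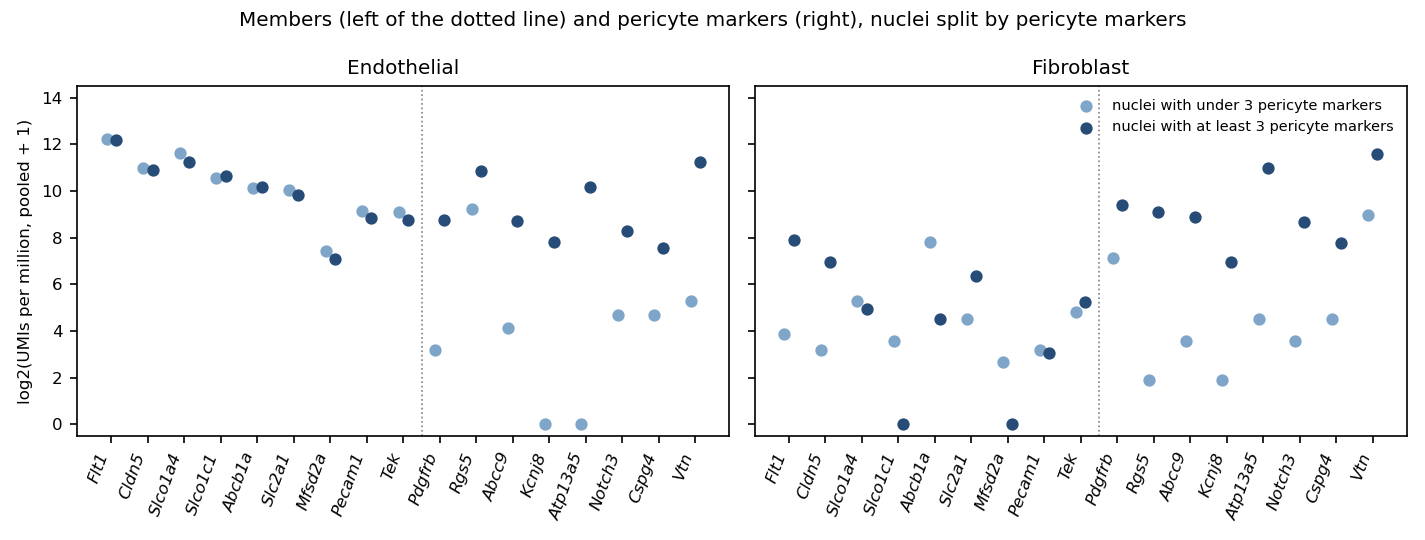
Pooled level (log2 of unscaled CPM + 1) of the 9 members and the 8 pericyte markers in endothelial and fibroblast nuclei, split by whether a nucleus has at least 3 pericyte markers. The members sum to 13625 and 14854 CPM in the 2 kinds of endothelial nuclei, whereas in fibroblasts Flt1 and Cldn5 are higher and Abcb1a lower in nuclei with the markers.

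Between female and male libraries no member was called in endothelial sums. By edgeR, and by DESeq2, 0 of 9 were called among 2005 genes tested with 4 female and 3 male sums, where edgeR called 6.48% of genes, and 0 of 9 had an unadjusted p under 0.05, where 21.2% of genes did. The log2 differences, female minus male, ran from −0.38 (SE 0.27) for Slco1a4 to 0.47 (SE 0.27) for Slc2a1. Slc2a1 had 1150.2, 981, 1029 and 932 CPM in the female sums and 832, 745 and 663 in the male ones. These did not overlap, as for 17.8% of genes tested, and the adjusted p was 0.35. Female endothelial nuclei were deeper, with a median of 3170 against 1537 UMIs.

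In astrocytes, 3 members passed the filter in this comparison (Slco1c1, Slc2a1 and Mfsd2a) and 0 of 3 were called by edgeR or DESeq2, where edgeR called 13.9% of 9804 genes. Unadjusted p was under 0.05 for 0 of 3 and for 30.1% of genes. Nor was the change of the endothelial minus astrocyte difference between library groups called for any of the 9 members by edgeR or DESeq2, where edgeR called 0.0536% of genes. For 1 of 9, Abcb1a, its unadjusted p was under 0.05 (0.0393, adjusted p = 0.65), as for 7.29% of genes. In ependymal cells, a comparison added after the values were seen, Slc2a1 had 388 ± 78.2 CPM in 5 female and 189 ± 123 CPM in 4 male sums, a log2 difference of 1.07 (SE 0.39) with an adjusted p of 0.11 by edgeR, where 8.93% of 4851 genes were called. The mitochondrial share is the authors' own column, and the male counts used here hold no mitochondrial UMI from which to check it. Its median was 3.17% in female and 1.44% in male endothelial nuclei, 3.40% and 2.00% in ependymal nuclei, and 2.13% and 0.59% in astrocytes. The male libraries are samples 1 to 4 and the female ones samples 5 to 10, with library names of another kind, and the labels name no batch. Sex, depth, mitochondrial share, the gene set counted and any batch that followed this split cannot be told apart in these comparisons.

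Other genes of the barrier were read from lists, members left out. Over all genes, 12.9%, 18.8% and 16.1% were called higher against fibroblasts, astrocytes and ependymal cells, and 10.0%, 27.0% and 26.2% lower. A gene found mainly in endothelial cells passed the filter through its endothelial sums. For such genes a higher call was largely set in advance. Of 21 endothelial receptors and factors, 16 passed the filter, and all 16 were higher in endothelial sums in all 3 comparisons. Adgrl4, an adhesion receptor of endothelial cells, had 1280.4 CPM against 7.60, 0.46 and 0.86 CPM in fibroblasts, astrocytes and ependymal cells, and Ptprb, the phosphatase that acts on TIE2, had 1239.6 against 25.1, 0.31 and 0.86. Adgrf5 and the ETS factor Fli1 stood at 743 and 722 CPM in endothelial sums.

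Of 13 tested solute carriers, 12 were higher than in fibroblasts, 11 than in astrocytes and 13 than in ependymal cells. Slc6a6, the taurine carrier, had 1148 CPM and log2 differences of 2.56, 4.46 and 5.43. Slc39a10, a zinc carrier, had 975 CPM with 4.45, 4.17 and 3.68, and Slc7a1, the cationic amino acid carrier, had 413 CPM with 3.46, 6.45 and 5.70. Slc7a5, the large neutral amino acid carrier, had 444 CPM with 5.55 and 6.50 against astrocytes and ependymal cells. Fibroblasts held 3 UMIs of it, a pooled ratio of 77.6 (26.3 to 378). Slc5a6, the vitamin carrier, was the 1 carrier that was lower, at 25.8 CPM against 91.0 in fibroblasts.

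The efflux pumps were divided. Of 6 tested, Abcg2 and Abcc4 were higher in all 3 comparisons, while Abca1 and Abcc5 were lower in all 3. Abcg2, the breast cancer resistance protein, had 701 CPM with log2 differences of 1.84, 7.23 and 7.32, and Abcc4 had 569 CPM with 1.39, 5.05 and 2.88. Abca1, which exports cholesterol, had 72.6 CPM against 119, 317 and 163 CPM, and Abcc5 had 55.0 against 140, 193 and 165. Like Abcb1a, the 2 higher pumps were closest to fibroblasts, at 205 and 219 CPM there.

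Among 12 tested junction genes, 10 were higher than in fibroblasts, 9 than in astrocytes and 10 than in ependymal cells. Tjp1, the scaffold ZO-1, had 1347 CPM with log2 differences of 1.69, 1.81 and 3.05, and Esam, an endothelial adhesion molecule, had 318 CPM with 4.02 and 9.21, and with a pooled ratio of 274.4 (92.7 to 1340.5) against ependymal cells, where 3 UMIs were counted. Cgnl1 had 340 CPM with 1.44, 6.53 and 5.20. Magi1 was higher than in fibroblasts (0.61), lower than in astrocytes (−0.54) and not called against ependymal cells (−0.46). Patj, a polarity scaffold, was lower than in ependymal cells, at 23.3 against 81.0 CPM.

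Of 9 tested genes of receptor transport and caveolae, 7, 6 and 6 were higher and 1, 2 and 1 lower. Among the lower ones were Lrp1 (59.99 CPM against 231 in fibroblasts and 362 in astrocytes) and Lrp8 (124 against 410.2 in ependymal cells). Igf1r stood at 2511 CPM with log2 differences of 3.19, 2.94 and 2.95, Insr, the insulin receptor, at 454 CPM with 2.10, 1.44 and 1.96, and Tfrc, the transferrin receptor, at 365 CPM with 4.24, 2.60 and 4.33. Cavin2, a coat protein of caveolae, had 176 CPM with 2.70, 6.86 and 2.13. Plvap, a marker of fenestrated vessels, did not pass the filter.

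Of 14 tested genes of the Wnt barrier program, 11 were higher than in fibroblasts and 12 than in each of the other types. Lef1, the Wnt transcription factor, had 944 CPM with log2 differences of 3.31, 5.60 and 4.85, and Ctnnb1, which encodes beta-catenin, had 459 CPM with 1.81, 2.14 and 1.44. The receptor Fzd6 had 287 CPM with 1.56, 3.69 and 2.81, and Apcdd1, a Wnt inhibitor and target, had 279 CPM with 1.17 and 4.64, and with a pooled ratio of 383 (105 to 3183) against ependymal cells, where 2 UMIs were counted. The co-receptor Lrp6 was the 1 gene called lower than in fibroblasts, at 107 against 164 CPM.

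Markers of vessel segments were sparse, and in endothelial cells uneven between the 7 libraries. The summed level (unscaled CPM) of artery markers ran from 125 to 2074 with a median of 375. That of smooth muscle markers ran from 17.9 to 1792 with a median of 102, and that of vein markers from 467 to 963 with a median of 831. The means of single artery and smooth muscle markers may thus rest on few libraries. Of 8 artery markers, 3 passed the filter, and Mgp was the 1 called against fibroblasts, at 148 CPM against 673, while Vegfc had 53.2 against 50.1 CPM and Stmn2, which neurons also express, 146 against 128. Of 8 vein markers, 4 passed. Tmsb10 was higher than in fibroblasts (275 against 96.3 CPM), Nr2f2 was lower (124 against 218 CPM), and Vcam1 and Il1r1 were not called, at 52.1 and 80.5 CPM. Mylk was the only smooth muscle marker to pass, at 90.6 CPM against 60.9 in fibroblasts.

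Over all 73 sums of the 8 cell types, the genes whose log2 levels followed the mean of the members most closely were, by Pearson's r across sums, Ly6c1 (0.96), Sox17 (0.95), Robo4 (0.94), Cd93 (0.94), Icam2 (0.93), Nostrin (0.93), Foxq1 (0.93) and Adgrl4 (0.93). Ly6c1, a surface antigen of brain endothelium, had 743 ± 344 CPM in endothelial sums and at most 5.01 CPM on average elsewhere. The guidance receptor Robo4 had 103 ± 37.4 CPM and at most 0.36 elsewhere. The members themselves followed their mean to unequal degrees, from 0.96 for Cldn5 and 0.95 for Slco1a4 to 0.66 for Slc2a1 and 0.47 for Mfsd2a. Each member is itself part of this mean, which raises its r beside that of a gene outside it. Sums of 1 library share their animals and depth, so these values describe the pattern and carry no test.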

How the data were processed

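Nuclei of 10 libraries were profiled with the 10x Genomics single cell 3' kit. The authors mapped reads with Cell Ranger (6.1.1 in the submitters' processing notes, with build mm10, and another version in the study's methods) and deposited raw, unscaled UMI counts of each gene in each nucleus, after leaving out nuclei with few genes, high mitochondrial shares or doublet clusters. Sums per nucleus equalled the deposited totals in all 20503 nuclei. The deposited percent of mitochondrial UMIs, made by the authors, gave the medians by library group and was used in 1 alternative. The mitochondrial counts behind it are absent from the male libraries. Other columns were not used.

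UMIs were summed per library and cell type (at least 10 nuclei), scaled by TMM and tested with edgeR 4.0.16 (quasi-likelihood, R 4.3.3). The fit held 73 sums of 8 types with the library as a block, since all types of a library come from the same tissue. Deviations from the type means correlated within libraries, from r = 0.26 to 0.59 between endothelial cells and astrocytes. SE is the log2 difference over the root of F. DESeq2 1.42.0 and other settings were alternatives, and male and female libraries were compared without a block. The fit and the thinning were tested on simulated data. Thinning drew UMIs without replacement. Scrublet in scanpy 1.11.5 called 153 doublets (0.746%), none of them endothelial. Libraries are labelled as separate biological replicates, so p-values measure the spread between these libraries.

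Members and lists were chosen with earlier results of these data known. Named besides the members were the 4 tested genes of each list with the highest endothelial level, the vessel segment genes tested, and the 8 genes most like the members. Abcb1b, Plvap, Slc5a6, Patj, Lrp1, Lrp8, Lrp6, Dcn, Mal and Aldoc were named after their values were seen. Genes were located in GENCODE vM21 and the 8 promoters in RefSeq.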

Additional observations from a re-analysis of the deposited data

Results flagged for a closer look

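The members' levels were searched for a library far from the rest of its cell type, by the gap to the nearest library over the range of the type (Dixon's 95% limit), in 36 groups of 7 to 10 libraries. The limit is made for normal values, where about 1 in 20 groups is flagged. It does not hold for sparse counts, since a group with UMIs in a single library is always flagged. Among the 36 groups 12 stood out, a number that cannot be set against 1 in 20. Most rest on few UMIs. In endothelial sums, Cldn5 in female replicate 4 had 2966 CPM (248 UMIs), next to 1859 CPM. In astrocytes, Slco1a4 in male replicate 1 had 20.7 CPM (26 UMIs), next to 2.82 CPM, and Pecam1 in female replicate 6 had 0 CPM, next to 4.00 CPM.

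In fibroblasts, Cldn5 had 67.5 CPM in female replicate 5 (7 UMIs), Slco1c1 had 39.8 CPM in female replicate 2 (2 UMIs), Mfsd2a had 16.4 CPM in male replicate 3 (2 UMIs) and Tek had 79.3 CPM in female replicate 4 (3 UMIs). In ependymal cells, Flt1 had 25.7 CPM in female replicate 1 (5 UMIs), Slco1c1 had 38.9 CPM (5 UMIs) and Mfsd2a 7.78 CPM (1 UMI) in female replicate 3, and Slco1a4 had 3.89 CPM (2 UMIs) and Abcb1a 5.84 CPM (3 UMIs) in male replicate 3. Without the library concerned, every member in the report's 3 comparisons was still called higher in endothelial sums.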

How the results depend on the processing

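The log2 differences of the 9 members in the 3 comparisons kept their direction in 648 of 648 alternative values and stayed called in 645, Flt1 being a description. The 3 exceptions arose in nuclei with at most 1% mitochondrial UMIs. Over all libraries this left 38 endothelial and 53 fibroblast nuclei, of which only 2 and 1 sums reached 10 nuclei and entered the fit. The single fibroblast sum was assumed to vary like the others. There, Mfsd2a and Abcb1a against fibroblasts were 2.35 (adjusted p = 0.4) and 1.62 (adjusted p = 0.21), and Mfsd2a against astrocytes was 1.82 (adjusted p = 0.052), all by edgeR. With those nuclei, genes called numbered 287 against fibroblasts (2255 in the report's fit), 1445 against astrocytes (4503), 866 against ependymal cells (4165), 849 for fibroblasts against astrocytes (3328, with 5 members in place of 8), 816 for fibroblasts against ependymal cells (3782, with 3 members in place of 6) and 2572 for ependymal cells against astrocytes (5204), from fewer nuclei and sums. With sums of at least 20 nuclei, 1241 genes were called against fibroblasts. Male libraries alone gave 699, 1629 and 1934 genes for endothelial cells against fibroblasts and for fibroblasts against astrocytes and ependymal cells, with 4 and 2 members called in the last 2. Without a filter on low counts, 8468 genes were called between ependymal cells and astrocytes. Without the library block, 9 members were called in each of the 3 endothelial comparisons, with 1857, 3945 and 3701 genes, and no member's call in them changed.

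Female against male endothelial sums gave 130 genes called, and 721 without a filter, 52 over genes counted in both library groups, 227 without nuclei with 3 pericyte markers, and from 77 to 317 when 1 library was left out, the highest without male replicate 1 and the lowest without female replicate 5. For astrocytes the count of 1359 became 3335 without a filter, 637 over genes counted in both groups and from 924 to 2791 when 1 library was left out. The highest came without male replicate 2, where 1 member was called in place of 0, so that from 0 to 1 members were called. The difference of endothelial cells and astrocytes between library groups gave 5 genes, 11 with DESeq2, 19 without a filter, 9 with sums of at least 5 nuclei, 179 without nuclei with 3 pericyte markers and from 1 to 100 when 1 library was left out, the most without male replicate 1. Male and female libraries share only a replicate number. With that number as a replicate block, 0 genes were called in endothelial sums and 826 in astrocytes, and 0 of 4 pairs correlated best with their own number. The causes were not tested.

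Without thinning, nuclei with at least 3 members averaged 0.66% in astrocytes and 0.72% in ependymal cells (0.67% and 0.72% also without called doublets), and in endothelial cells the share was 78.3% at 500 UMIs. At 500 UMIs the endothelial share with a UMI was 80.3% for Flt1, 55.8% for Cldn5, 50.9% for Slco1c1, 38.4% for Abcb1a, 35.4% for Slc2a1, 19.5% for Pecam1, 20.3% for Tek and 6.17% for Mfsd2a (5.50% at 1000). Without thinning it was 77.8% for Slc2a1, 66.8% for Pecam1, 64.8% for Tek and 38.4% for Mfsd2a. The nuclei kept differ between depths (213 endothelial at 500 UMIs, 159 at 1000). The endothelial type rests on 215 nuclei and on sums of at most 64, which limits every level given, and fewer nuclei limit the fibroblast values further.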

Other observations

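The 2 astrocyte clusters of the deposited table were read separately for the members found there. Slco1c1 had 51.8 ± 17.7 CPM (SD, n = 10 libraries) in the larger cluster of 4591 nuclei and 21.2 ± 16.7 CPM (n = 9) in the smaller one of 711. Slc2a1 had 70.3 ± 23.7 and 93.3 ± 24.1 CPM, and Mfsd2a had 32.3 ± 14.0 and 35.2 ± 14.7 CPM. These levels are CPM without scaling of the library size and were not tested.

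Tek was counted in all 8 neuron clusters, from 11.8 ± 4.24 CPM (n = 10) in cluster 2 to 27.1 ± 19.7 CPM in cluster 6, with cluster 5 at 26.9 ± 9.81 CPM. Pecam1 had its highest level among neuron clusters in cluster 6 as well, 12.7 ± 6.01 CPM, and its lowest in cluster 3, 1.90 ± 1.51 CPM. Both stayed far under their endothelial levels, and differences between clusters were not tested.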
